A study of Mus musculus with 2254 samples.

Results

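The cells described here are ependymal cells of the adult mouse brain that carried reads of Col6a5, Htr5b, Calb1 or Ucma. They were chosen from the counts themselves. A cell with at least 50000 counts was taken as ependymal when Ccdc153 and Tmem212 together reached 100 CPM (counts scaled to a total of 1000000 per cell), and as programme-high when Col6a5, Htr5b, Calb1 and Ucma together reached 50 CPM. The rule found 204 ependymal cells among 2252 cells kept, and 172 of them were programme-high. The other 32 ependymal cells, with under 50 CPM, served for comparison. Since these values chose the cells, the levels of the 6 genes are a description, and no difference between programme-high and other ependymal cells was tested.

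All cells came from adult C57BL/6 mice carrying SM22-Cre and Rosa26-stop-tdTomato. The SM22 promoter belongs to Tagln, a smooth muscle gene, and turns on a red fluorescent reporter where Cre is made. Fluorescence-sorted cells were placed singly in plates, and their full-length cDNA was made and sequenced with Smart-seq2. The sort gates are not given in the sources used here. Notch3 status is the only difference that the labels give, with Notch3 KO cells on plates 043, 467 and 471 and Notch3 WT cells on plates 044, 468 and 469. Notch3 encodes a receptor known from the mural cells of vessels. The labels name no animal, so each genotype counted as 1 sample. Values are given by plate, with no p-value between genotypes, and plates are not replicates of known origin.

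Ependymal cells form the ciliated lining of the brain ventricles, and their beating cilia move cerebrospinal fluid. They are made from radial glia, and genes that mark the region of the neural tube from which they came can stay on in the adult. Of the 4 genes in the rule, Col6a5 encodes a collagen VI chain, Htr5b a serotonin receptor, Calb1 the calcium-binding protein calbindin, and Ucma a secreted matrix protein of cartilage with Gla residues. Ccdc153 and Tmem212 are markers of ciliated ependymal cells.

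Programme-high cells had a median of 292620 counts and 6385.5 detected genes, against 314420 counts and 5785 genes in the other ependymal cells. The median over all kept cells was 291913 counts, with a range from 50570 to 763059. No kept cell had the same counts as another, with 0 such cells. Notch3 was read in 27 of the programme-high cells, or 15.7%. Its level summed over these cells was at most 6.91 CPM on any plate (KO plate 467), so it could not check the genotype labels here.

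Ependymal markers that the rule did not use were read in most programme-high cells. Of 16 such markers, 14 were read in at least 90% of programme-high cells, and 11 were read in at least 90% of the others. Foxj1, the master regulator of motile cilia, was read in 99.4% of programme-high and 93.8% of other ependymal cells. Its summed level in programme-high cells was 248, 254 and 292 CPM on KO plates 043, 467 and 471, and 262, 290 and 353 CPM on WT plates 044, 468 and 469. These plate values lay close together in both genotypes. Hydin, a protein of the ciliary central pair, was read in 98.8% of programme-high cells, and the axonemal tektin Tekt4 in 86.0%. The median level of Hydin was 553 CPM in programme-high and 1002 CPM in other ependymal cells. Markers of tanycytes and of the choroid plexus, which border ependymal cells, were read to very different extents. The tanycyte factor Rax was read in 0.581% of programme-high cells and the choroid plexus transthyretin gene Ttr in 7.56%, with mean levels of 0.0245 and 2.00 CPM. Other genes of the tanycyte list were widely read in programme-high cells: Nnat and the intermediate filament gene Vim in 100%, Scn7a in 72.7%, the filament gene Nes in 65.1% and Igfbp5 in 61.0%. The summed level of the 18 tanycyte markers ran from 1965 to 7431 CPM per programme-high cell, with a median of 3670 CPM, and from 574 to 8371 CPM per other ependymal cell, with a median of 3108 CPM. The summed level of the 16 choroid plexus markers ran from 4.65 to 2926 CPM per programme-high cell and from 431 to 4168 CPM per other ependymal cell. Most of that sum came from Folr1, Calml4 and Tmem72, which were read in 80.8%, 95.9% and 83.1% of programme-high cells.

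No ependymal cell had a summed level of the 4 genes between 33.4 and 62.8 CPM, the range that holds the threshold of 50 CPM. The rule cut the cells on this same sum, so the values cannot show whether the cells form separate groups. The lowest summed levels of the 4 genes among programme-high cells were 62.8, 89.8 and 103 CPM, and the highest among other ependymal cells were 33.4, 19.5 and 17.5 CPM. Of the 32 other cells, 27 had no read of any of the 4 genes. The median of programme-high cells was 1505 CPM and the highest was 6320 CPM. The ependymal sum of Ccdc153 and Tmem212 was 1004 CPM or more in every programme-high cell, with a median of 1979 CPM, and its median in other ependymal cells was 2197 CPM. One ependymal cell had only 177 CPM of that sum, and it was not programme-high. The highest sum of Ccdc153 and Tmem212 in a cell outside the ependymal set was 86.5 CPM.

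**Figure D1:**
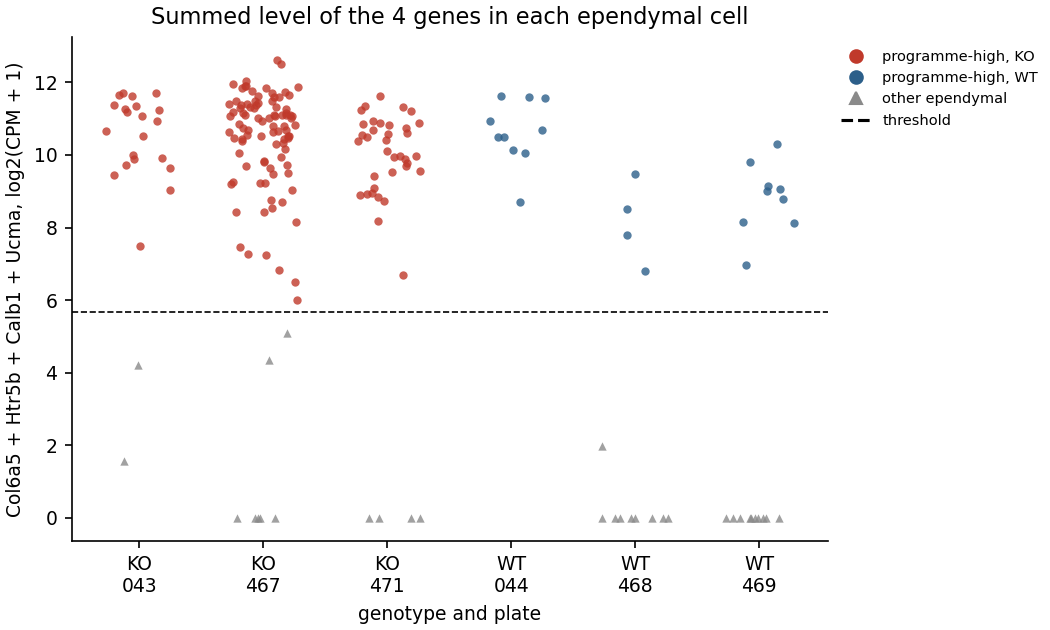
Summed level of Col6a5, Htr5b, Calb1 and Ucma per ependymal cell on a log2(CPM + 1) scale, by genotype and plate. Circles are programme-high cells, triangles are other ependymal cells and the dashed line is the threshold of 50 CPM. KO plate 467 holds 92 of the circles, and WT plates 468 and 469 hold 19 of the 32 triangles.

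Calb1 was the most widely read of the 4 genes, in 90.1% of programme-high cells, followed by Col6a5 in 62.8%, Htr5b in 62.2% and Ucma in 55.2%. Calb1 (chromosome 4, 15881264 to 15908064, plus strand, GRCm38) had summed levels of 1065, 734 and 453 CPM on KO plates 043, 467 and 471, and of 864, 328 and 312 CPM on WT plates 044, 468 and 469. It was high on every plate. Col6a5 (chromosome 9, 105856078 to 105960643, minus strand) stood at 301, 566 and 349 CPM on KO plates 043, 467 and 471, and at 191, 0 and 4.10 CPM on WT plates 044, 468 and 469. Plates 468 and 469 were thus far lower than the other 4 plates.

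Htr5b (chromosome 1, 121509842 to 121528465, minus strand) was at 331, 430 and 349 CPM on KO plates 043, 467 and 471, and at 536, 0 and 72.8 CPM on WT plates 044, 468 and 469. WT plate 044 was the highest of all 6 and WT plate 468 had no read, so the genotypes overlapped. Ucma (chromosome 2, 4976122 to 4985748, plus strand) was at 146, 201 and 153 CPM on the KO plates, and the WT plates 044, 468 and 469 had 251, 46.8 and 157 CPM. Ccdc153 (chromosome 9, 44240676 to 44247306, plus strand) and Tmem212 (chromosome 3, 27866066 to 27896368, minus strand), which define the ependymal set, varied much less. Ccdc153 was between 819 CPM on plate 043 and 1152 CPM on plate 467. Tmem212 was between 732 CPM on plate 043 and 1104 CPM on plate 468.

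**Figure D2:**
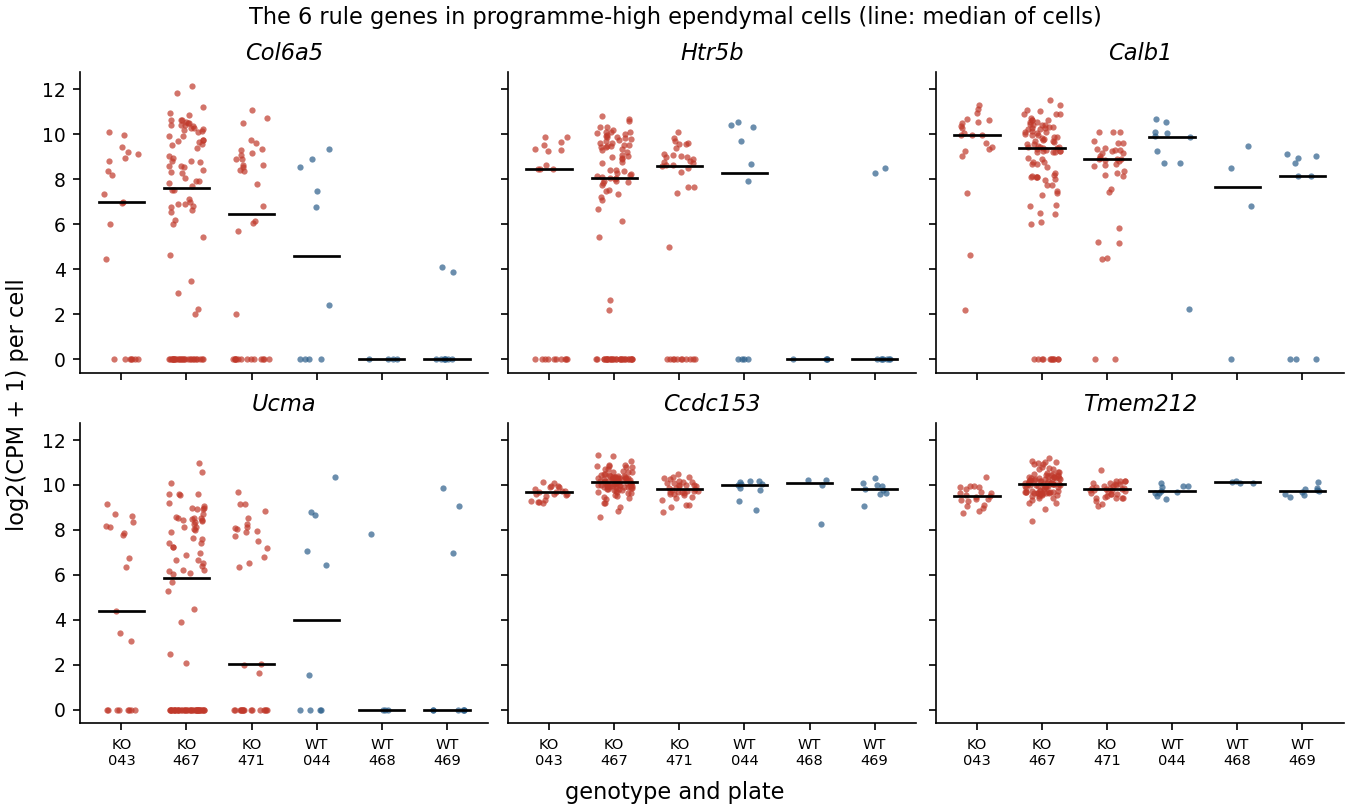
Level of the 6 rule genes per programme-high cell on a log2(CPM + 1) scale, by genotype and plate, with a line at the median of the cells. Col6a5 and Htr5b lie at 0 in every cell of plate 468 and in 7 of 9 cells of plate 469, while Ccdc153 and Tmem212 are read in all cells.

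The regions upstream of these genes are shown because the rule that chose the cells rests on these genes. Col6a5 and Ucma were both read in 66 of the 172 programme-high cells. RefSeq promoter entries (GRCm38.p6) were matched for 4 of the 6 rule genes: Col6a5, Ucma, Ccdc153 and Tmem212. The 250 bases before the start of Ccdc153 (chr9:44240427-44240676, plus strand), Col6a5 (chr9:105960644-105960893, minus strand) and Ucma (chr2:4975872-4976121, plus strand) read as follows, 5′ to 3′ on the gene's strand, with motif matches in capitals.
Ccdc153: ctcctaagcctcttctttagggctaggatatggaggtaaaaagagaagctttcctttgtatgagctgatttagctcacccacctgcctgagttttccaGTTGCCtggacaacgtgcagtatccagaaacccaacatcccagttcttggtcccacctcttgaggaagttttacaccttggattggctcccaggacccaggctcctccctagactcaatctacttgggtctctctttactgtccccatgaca
Col6a5: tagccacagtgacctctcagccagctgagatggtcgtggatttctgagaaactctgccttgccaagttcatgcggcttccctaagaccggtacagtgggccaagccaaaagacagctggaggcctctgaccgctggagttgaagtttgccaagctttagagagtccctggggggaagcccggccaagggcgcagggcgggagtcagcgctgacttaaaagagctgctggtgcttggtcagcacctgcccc
Ucma: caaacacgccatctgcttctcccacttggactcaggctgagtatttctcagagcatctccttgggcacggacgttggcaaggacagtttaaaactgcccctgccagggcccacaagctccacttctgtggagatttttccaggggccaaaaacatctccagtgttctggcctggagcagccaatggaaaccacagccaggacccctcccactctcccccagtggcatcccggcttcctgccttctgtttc
Both strands were searched for GTTGCC (a half-site of RFX factors, which drive ciliary genes), GTAAACA (forkhead factors), TAATCC (OTX factors) and TAATTA (homeobox factors). None of these motifs contains another. Ccdc153 held 1 match to GTTGCC, at 152 bases before the start (position -152). Col6a5, Ucma and Tmem212 held none of the 4 motifs, which says only that these letters are not in these windows. Among all 32851 promoter windows of this length, 10.4% held GTTGCC, 3.17% GTAAACA, 6.25% TAATCC and 4.84% TAATTA.

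Most programme-high cells carried reads of several of the 4 genes. All 4 were read in 50 cells, 3 in 57, 2 in 29 and 1 in 36. Calb1 alone accounted for 27 of the single-gene cells and Ucma alone for 6. On WT plates 468 and 469 no programme-high cell had more than 2 of the genes: all 4 cells of plate 468 had 1, and the 9 cells of plate 469 had 1 (5 cells) or 2 (4 cells). On WT plate 044, 7 of 10 cells had 3 or 4. Across the 92 programme-high cells of plate 467 the log2 levels of Col6a5 and Htr5b had a Pearson r of 0.50 (Spearman 0.51), and those of Calb1 and Ucma had an r of -0.26 (Spearman -0.28). For Col6a5 and Htr5b r was 0.069 (Spearman -0.0009) on plate 471 (36 cells) and 0.41 (0.24) on plate 043 (21 cells). For Calb1 and Ucma it was 0.20 (Spearman -0.012) on plate 471 and -0.18 (-0.0080) on plate 043, so neither pair ran alike on all 3 plates. These describe cells that share a plate and a rule on the sum of the same genes.

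Programme-high cells made up nearly all ependymal cells on 4 plates and fewer on the other two. They were 21 of 23 ependymal cells on KO plate 043 (91.3%, exact Clopper-Pearson 95% interval 72.0 to 98.9%), 92 of 99 on KO plate 467 (92.9%, 86.0 to 97.1%) and 36 of 40 on KO plate 471 (90.0%, 76.3 to 97.2%). They were 10 of 10 on WT plate 044 (100%, 69.2 to 100%), 4 of 13 on WT plate 468 (30.8%, 9.09 to 61.4%) and 9 of 19 on WT plate 469 (47.4%, 24.4 to 71.1%). The intervals cover counting error only. The mean over plates was 91.4% ± 1.47 (SD, 3 plates) in KO and 59.4% ± 36.1 (SD, 3 plates) in WT. The genotypes overlapped, because plate 044 was above every KO plate. Within plates 043 and 044 alone the KO minus WT difference was -8.70 percentage points. All ependymal cells together were 6.08%, 26.8% and 10.6% of the kept cells on KO plates 043, 467 and 471. On WT plates 044, 468 and 469 they were 2.64%, 3.48% and 5.09%. Plate, sort and genotype cannot be told apart in these shares.

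Across genes, programme-high cells were compared with the other ependymal cells of the same plate, from counts summed per plate and class. A gene met the size rule when its log2(CPM + 1) differed at least 2-fold on average, in the same direction on every plate used, with at least 10 CPM as a mean and a read in at least 10% of cells in either class. Only plates 467 (92 against 7 cells) and 469 (9 against 10 cells) had at least 5 cells of each class, so leaving out either leaves the other plate's value. Of 11639 genes tested, 2175 were higher (18.7%) and 1172 were lower (10.1%) in programme-high cells, and the median log2 difference of all tested genes was 0.16. When plates 468 and 471, with 4 cells in their smaller class, were added, 686 of 11626 genes (5.9%) were higher and 362 (3.11%) lower on all 4 plates. With the counts of all plates pooled, 1436 of 11588 genes (12.4%) were higher and 913 (7.88%) lower. Both additions were chosen after seeing the data. Some later values required reads of at least 2 or 3 of the 4 genes, or left Calb1 out of the sum. Those rules used KO plates 043, 467 and 471 and no WT plate, and cells that missed them joined the others. Such values therefore differ from the main ones in plates and in cells. Because 17 other cells stood behind the 2-plate values, 121 of the higher genes had no read in any of them, and 0 of 17 cells allows a share of up to 17.6%.

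The 5 largest differences outside the rule genes were those of Fbxw10, Synpo, Tk2, Faim2 and Lrrc57. Fbxw10, an F-box protein gene, was at 83.4 against 0 CPM on plate 467 and 157 against 0 CPM on plate 469 (mean log2 difference 6.85). It was also higher on plates 468 and 471, by 2.53 and 5.83 log2 units, and was read in 64 of 172 programme-high cells (37.2%) and 1 of 32 others (3.12%). Fbxw10 overlaps Trim16 on the same strand. Synpo, which encodes the actin-associated protein synaptopodin, was read in 47.1% of programme-high and 12.5% of other cells, and it too was higher on all 4 plates. Faim2, an inhibitor of Fas-mediated cell death, was read in 30.2% against 3.12%. The mitochondrial thymidine kinase gene Tk2 and the leucine-rich repeat gene Lrrc57 were lower in programme-high cells on plate 468, with Tk2 lower by 6.28 log2 units, so their direction was not shared by all plates. Lrrc57 overlaps Haus2 on the opposite strand. Tk2 was also lower, by 0.16 log2 units, when reads of at least 3 of the 4 genes were required.

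The largest differences in the other direction were those of Pcdh11x, Zfp939, Zfp786, Apod and Rftn1. Apod, the lipid-binding apolipoprotein D, was at 6.27 against 183 CPM on plate 467 and 9.46 against 455 CPM on plate 469. It was lower on all 4 plates and was read in 75 programme-high cells (43.6%) and 22 of the others (68.8%). A few cells carried most of its level in the others, where the median was 3.81 CPM and the highest cell had 4726 CPM. Zfp939 is annotated as a transcribed unprocessed pseudogene. The protocadherin gene Pcdh11x, Zfp939, the zinc finger gene Zfp786 and the raft protein gene Rftn1 were each read in at most 3 of the 32 other cells. Their differences rest on those cells. Zfp939 was higher in programme-high cells, by 1.25 log2 units, when these had to carry reads of at least 2 of the 4 genes and cells with 1 were counted among the others.

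Several transcription factors that mark regions of the neural tube were read in different shares of the 2 classes, with cells pooled over plates on which the classes were unevenly spread. The following genes and those of the next 2 paragraphs, apart from Zic4, Emx1, Pax3 and Tshz1, were chosen after their values were seen. Zic4, a zinc finger factor of the dorsal neural tube, was read in 12.2% of programme-high and 34.4% of other cells, and its neighbour Zic1 in 16.3% and 40.6%. Neither met the size rule, since Zic4 and Zic1 were higher in programme-high cells on plate 469. Zic1 and Zic4 overlap on opposite strands, and without a stated strand setting reads in the overlap cannot be told apart.

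Otx2, a homeobox factor of the anterior brain, was read in 19.8% of programme-high and 43.8% of other ependymal cells. The homeobox gene Msx1, active in dorsal midline cells, was read in 39.0% and 65.6%, Cdh26, which encodes a cadherin, in 15.7% and 46.9%, and Cnpy1 in 11.6% and 43.8%. Cdh26 was at 27.9 against 297 CPM on plate 467 and 201 against 306 CPM on plate 469. Of these, Cdh26 met the size rule on plates 467 and 469. Otx2, Msx1 and Cnpy1 did not, although Msx1 met it over 4 plates. Otx2 was higher in programme-high cells on plates 468 and 469. Pax3, another dorsal factor, met it with 1.28 against 87.5 CPM on plate 467 and 0.630 against 11.7 CPM on plate 469.

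Lhx2, a transcription factor of the developing forebrain, was read in 38 programme-high cells (22.1%) and in 0 of 32 other cells, which allows a share of up to 9.38% by the limit of 3 counts (Clopper-Pearson upper bound 10.9%). All 38 cells lay on plates 043, 044, 467 and 471, and the 13 programme-high cells of plates 468 and 469 had none. Emx1, a cortical homeobox factor, was read in 23.8% and 9.38% and met the size rule on plates 467 and 469, but was lower on plate 471. Tshz1 was higher on all 4 plates, with 63.7 against 1.09 CPM on plate 469 and a mean log2 difference of 4.12 over plates 467 and 469. Its difference was -0.77 log2 units over KO plates 043, 467 and 471 when reads of at least 3 of the 4 genes were required. With every ependymal cell thinned to 50000 counts the shares with a read were 18.6% against 37.5% for Otx2 and 17.4% against 0% for Lhx2.

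By list, 10 of 23 forebrain factors were tested, of which 3 were higher (Emx1, Emx2 and Nr2f2) and 0 lower, with a median log2 difference of 0.88. Of 10 midbrain and hindbrain factors tested, 2 were higher (Tshz1 and Tshz2) and 2 lower (Pax3 and Meis1), with a median of -0.28. No Hox gene passed the filter on low values, 0 of 21. These counts lie near the shares over all genes and are read no further.

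Programme-high cells were also divided by how many of the 4 programme genes had a read, into 36 cells with 1 and 136 cells with 2 to 4. This division uses the rule genes, and the genes compared were chosen after their values were seen, so the shares are a description over cells pooled from 6 plates. Their intervals cover counting error only. Otx2 was read in 47.2% of the 36 cells (Clopper-Pearson 30.4 to 64.5%), 12.5% of the 136 (7.45 to 19.3%) and 43.8% of the 32 others (26.4 to 62.3%). Zic4 was read in 44.4% (27.9 to 61.9%), 3.68% (1.20 to 8.37%) and 34.4% (18.6 to 53.2%) in the same order. For both genes the share was lowest in the 136 cells. Lhx2 ran differently, with 16.7% of the 36 cells, 23.5% of the 136 and 0% of the 32. Cdh26 was read in 33.3% of the 36 cells, 11.0% of the 136 and 46.9% of the 32.

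Within plate 467 the share was again lowest in cells with 2 or more programme genes. Otx2 was read in 50.0% of the 16 programme-high cells with 1 programme gene, 7.89% of the 76 with 2 or more and 42.9% of the 7 others, and Zic4 in 50.0%, 2.63% and 57.1%. On plates 043 and 471 together Zic4 was read in 44.4% of 9 (13.7 to 78.8%) and 4.17% of 48 programme-high cells (0.509 to 14.3%). Otx2 was read there in 33.3% (7.49 to 70.1%) and 20.8% (10.5 to 35.0%). The intervals overlapped for both genes. Timp4, an inhibitor of matrix metalloproteinases, ran the other way: it was read in 25.0% of the 32 other cells, 47.2% of the 36 and 72.1% of the 136. Median depth differed little between the sets, with 269688 counts in the 36 cells and 296142 in the 136. When the number of programme genes was taken after thinning to 50000 counts, Otx2 was read in 46.2% of 39 cells with 1 gene, 11.1% of 36 with 2, 15.1% of 53 with 3 and 4.55% of 44 with 4. Over the 92 cells of plate 467 the log2 levels of Zic4 and of the 4-gene sum had a Pearson r of -0.57 (Spearman -0.36), against -0.22 on plate 471 (36 cells) and -0.43 on plate 043 (21 cells).

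**Figure D3:**
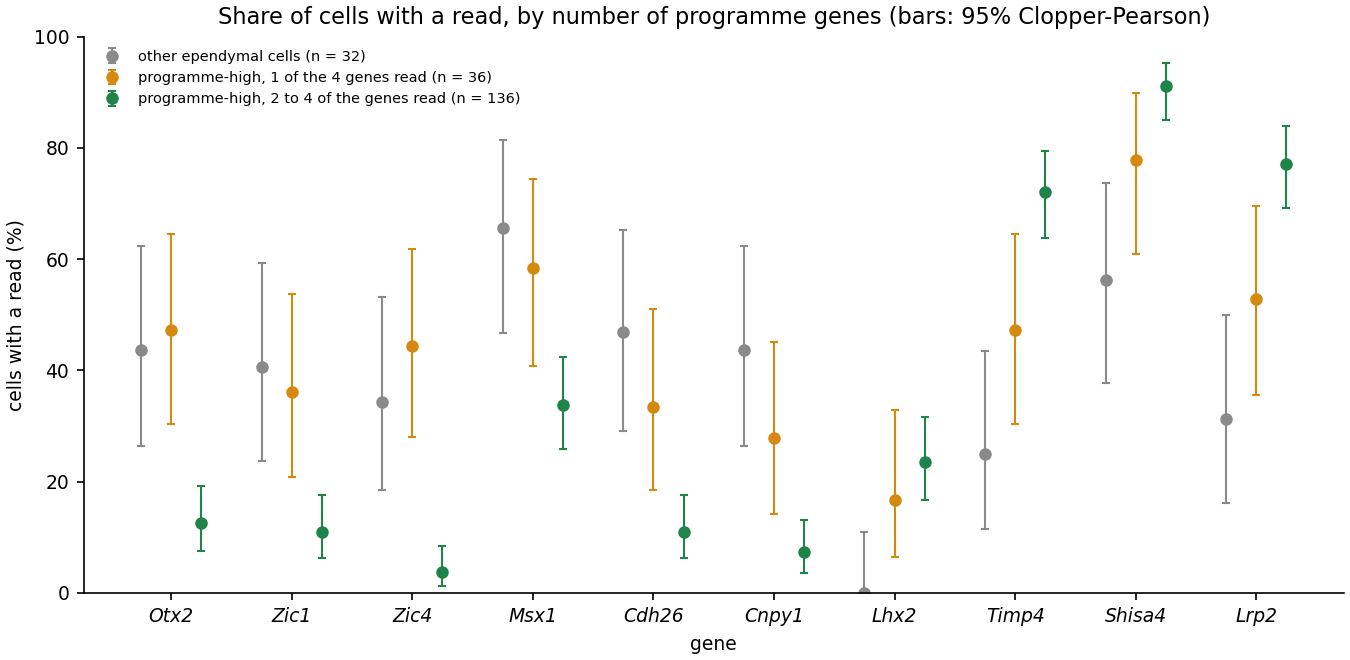
Share of cells with a read of 10 genes in other ependymal cells (n = 32), programme-high cells with a read of 1 of the 4 programme genes (n = 36) and those with 2 to 4 (n = 136), with 95% Clopper-Pearson intervals. For Otx2, Zic1 and Zic4 the share is lowest in the third set, and for Timp4, Shisa4 and Lrp2 the share is highest in the third.

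Timp4, Shisa4, Ccdc3 and Lrp2 were read in larger shares of programme-high cells and were chosen after their values were seen. Timp4 was at 212 against 0 CPM on plate 467 and 197 against 126 CPM on plate 469, and it was higher on plates 468 and 471 as well. Its exons overlap those of Syn2 on the opposite strand. Shisa4, which encodes a small membrane protein, was read in 88.4% of programme-high and 56.2% of other cells, and Ccdc3, a secreted protein gene, in 84.3% and 43.8%. Both were higher on all 4 plates, Ccdc3 with 397 against 139 CPM on plate 467 and 265 against 109 CPM on plate 469. Lrp2, the gene of the endocytic receptor megalin, was read in 72.1% and 31.2%, but it was lower in programme-high cells on plates 468 and 471.

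Of 17 collagen genes tested besides the rule gene Col6a5, 4 were higher (Col1a2, Col26a1, Col4a5 and Col5a1) and 2 lower (Col20a1 and Col4a2), against 18.7% and 10.1% of all genes. Col20a1 was at 11.3 against 68.6 CPM on plate 467 and 5.99 against 89.5 CPM on plate 469, and was lower on all 4 plates. Col4a5, a basement membrane collagen chain, was higher on plates 467, 469 and 471 and lower on 468. Among receptor genes for neurotransmitters, Gabrb1, a GABA-A receptor subunit, was at 76.7 against 9.80 CPM on plate 467 and 10.1 against 0 CPM on plate 469 and was higher on all 4 plates. Gabrb1 and Gabra4 exons overlap on opposite strands. The adrenergic receptor gene Adrb1 was read in 23.3% of programme-high and 3.12% of other cells. With reads of at least 2 of the 4 genes required, Adrb1 and Emx1 were no longer higher, at -0.08 and -0.14 log2 units. That comparison used KO plates 043, 467 and 471.

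Signalling lists held genes in both directions, and their counts are set against the 18.7% of all genes that were higher and the 10.1% that were lower. In the Wnt pathway 6 of 21 genes were higher (Wnt7b, Sfrp1, Dkk3, Axin2, Tcf7l1 and Nkd1) and 2 lower (Lrp5 and Lgr6). Dkk3, a secreted relative of the Dickkopf inhibitors, was at 149 against 21.0 CPM on plate 467 and 377 against 26.1 CPM on plate 469. In the Notch pathway 2 of 18 genes were higher (the ligands Jag1 and Jag2) and 2 lower (the target Hey2 and the gamma-secretase gene Psen2). Hey2 was at 11.8 against 210 CPM on plate 467 and 0 against 28.3 CPM on plate 469, but its direction was the opposite on plate 471 and when at least 2 of the 4 genes had to be read. Psen2 was lower on all 4 plates, but its difference was 0.03 log2 units when Calb1 was left out of the 4-gene sum. That comparison used KO plates 043, 467 and 471. Of 34 calcium-binding protein genes tested besides the rule gene Calb1, 4 were higher (Necab1, Ncs1, Casq1 and Casq2) and 1, Spock2, was lower. None of these counts is read as particular to its list. The calsequestrin gene Casq2 was lower on plate 468, by 5.23 log2 units.

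Few cilium genes met the size rule. None of the 18 ependymal markers met the size rule, 0 higher and 0 lower, and their median log2 difference was -0.08. Of 55 genes of the motile axoneme and ciliogenesis tested, 4 were higher (Rfx4, Ccno, Tekt2 and Efhc2) and 0 lower, against 18.7% and 10.1% of all genes, with a median of -0.02. Over 4 plates 0 of 56 such genes were higher and 2 lower, against 5.9% and 3.11% of all genes. Rfx4, an RFX factor of the brain midline, was at 111 against 36.4 CPM on plate 467 and 126 against 5.71 CPM on plate 469. It was lower in programme-high cells on plate 468, as were the cyclin family gene Ccno and the tektin gene Tekt2. Rfx4 was also lower, by 1.60 log2 units, when Ucma was left out of the 4-gene sum. Of 14 heat shock genes tested, Hspb1 and Hsph1 were lower and Dnajb1 higher. Hsph1 was at 612 against 1151 CPM on plate 467 and 374 against 838 CPM on plate 469 and was lower on all 4 plates, as was the small heat shock gene Hspb1.

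Of 10 smooth muscle markers, 2 were read in at least 90% of programme-high cells, Acta2 in 98.8% and Myl9 in 99.4%, while Tagln was read in 78.5%, Myh11 in 66.9% and Cnn1 in 14.0%. Acta2, smooth muscle alpha-actin, was read in 87.5% of other ependymal cells. Its summed level in programme-high cells was 974, 1368 and 1152 CPM on KO plates 043, 467 and 471 and 1104, 214 and 356 CPM on WT plates 044, 468 and 469. In the other ependymal cells it was 597, 795 and 509 CPM on the same KO plates and 37.3 and 60.9 CPM on WT plates 468 and 469. Acta2 was thus higher in programme-high cells on each of the 5 plates that held both classes, and both classes were lower on plates 468 and 469 than elsewhere. When Ucma was left out of the 4-gene sum the Acta2 difference was -0.16 log2 units. The myosin light chain gene Myl9 was at 647 against 358 CPM on plate 467 and 121 against 91.7 CPM on plate 469, which did not meet the size rule. Tagln, whose promoter drives Cre in these mice, was at 145 against 32.9 CPM on plate 467 and 45.4 against 1.09 CPM on plate 469. It was lower in programme-high cells on plates 468 and 471, and it overlaps Pcsk7 and Gm48529 on the opposite strand.

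These levels were set beside those of smooth muscle cells on the same plates. Cells outside the ependymal set with at least 100 CPM of the smooth muscle myosin gene Myh11 (1259 cells) had 5299 CPM of Acta2 and 3762 CPM of Myh11. Programme-high cells had 1144 CPM of Acta2 and 4.21 CPM of Myh11. The ratio of Myh11 to Acta2 was 0.00368 in programme-high cells and 0.710 in Myh11-positive cells, which were chosen for Myh11. The ratio of Myl9 to Acta2, which that choice did not use, was 0.405 and 0.642, and that of Tagln to Acta2 was 0.0847 and 0.273. Over plates the Myl9 ratio in programme-high cells ran from 0.285 on plate 043 to 1.65 on plate 468. Myh11-positive cells were 11.2% and 17.4% of the kept cells on plates 468 and 469 and between 61.9% and 91.3% on the other plates. The summed level of the 10 smooth muscle markers ran from 2.93 to 6310 CPM per programme-high cell, with a median of 1710 CPM, and from 0 to 3899 CPM per other ependymal cell, with a median of 199 CPM. Cyr61, a matricellular gene chosen after its values were seen, was read in 79.7% and 40.6%, and its difference was -0.02 log2 units when reads of at least 3 of the 4 genes were required. The part of plate, sort and neighbouring cells in the Acta2 level was not tested beyond these values.

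**Figure D4:**
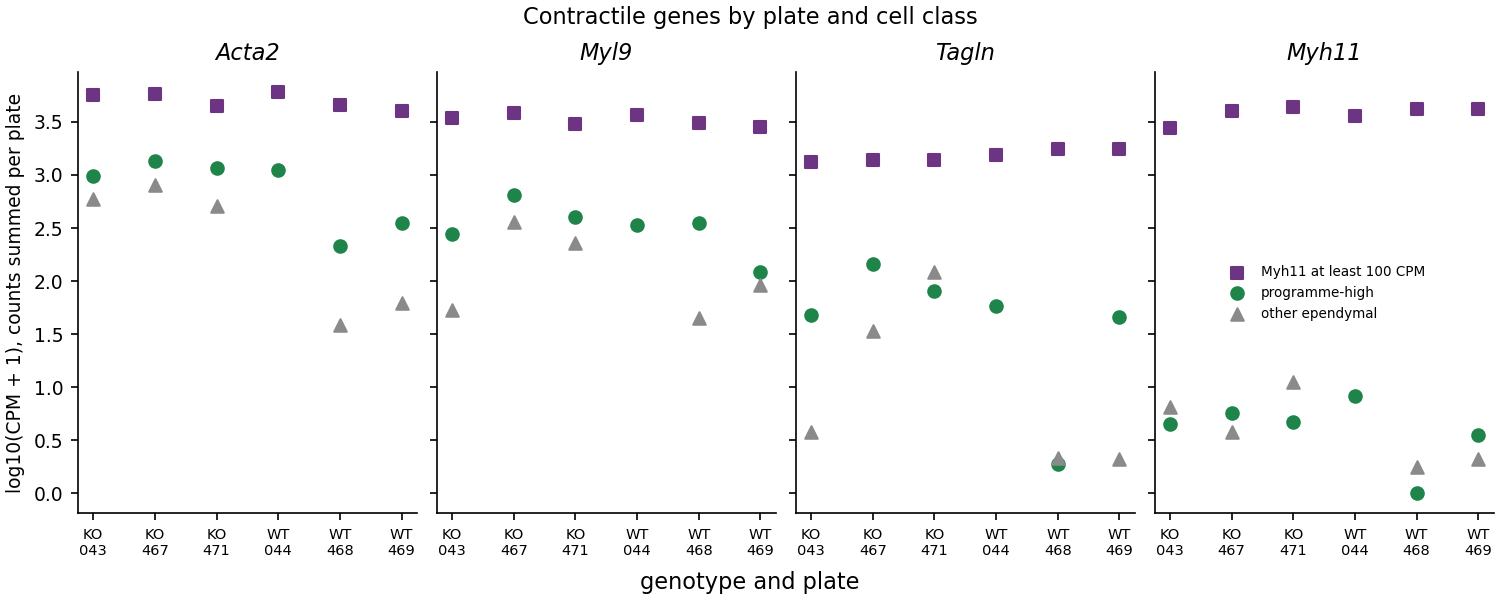
Acta2, Myl9, Tagln and Myh11 on a log10(CPM + 1) scale from counts summed per plate, in programme-high cells, other ependymal cells and cells with at least 100 CPM of Myh11. Myh11 is at 10.3 CPM or less in both ependymal classes on every plate, while Acta2 is at 214 CPM or more in programme-high cells on all 6 plates.

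Levels of the markers of other cell types differed widely between lists. The endothelial receptor gene Tek was read in 1 of 172 programme-high cells (0.581%) and in 7 of 32 others (21.9%), and was lower on all 4 plates. Its level was carried by few cells, with a median of 3.18 CPM in the others with a read and a highest of 459 CPM. Mean levels in the endothelial list ran both ways. Kdr was at 17.8 CPM in programme-high and 11.2 CPM in other cells, though read in 16.9% and 25.0%, and Pecam1 was at 2.44 and 2.54 CPM. Flt1 was read in 18.6% and 50.0% and Slco1a4 in 6.98% and 31.2%, though both had the higher mean in programme-high cells. The summed level of the 10 endothelial markers ran from 0 to 2066 CPM per programme-high cell with a median of 4.22 CPM, and from 0 to 479 CPM per other cell with a median of 12.0 CPM. By plate these medians ran both ways. They were 6.76 and 0.873 CPM on plate 043, 6.17 and 4.26 CPM on plate 468 and 23.2 and 20.9 CPM on plate 469. Programme-high cells were lower on plate 467, at 3.92 and 11.1 CPM, and on plate 471, at 2.89 and 168 CPM. The 10 astrocyte markers had medians of 3227 and 2458 CPM, with Gja1 read in 100%, Aqp4 in 97.7% and S100b in 97.7% of programme-high cells. Among them Slc1a3, a glutamate transporter gene, was read in 91.9% of programme-high and 68.8% of other cells. It did not meet the size rule. For the 8 oligodendrocyte markers the medians were 441 and 549 CPM, and for the 10 neuronal markers 210 and 130 CPM. Cnp of the first list was read in 90.7% of programme-high cells and Map2 of the second in 86.0%. The part of these markers in the differences was not tested.

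Within programme-high cells the genotypes were compared over plates with at least 5 such cells, which left KO plates 043, 467 and 471 (149 cells) and WT plates 044 and 469 (19 cells). A gene met the size rule here when it differed 2-fold or more and no KO plate overlapped a WT plate. By this rule 1202 of 11583 genes (10.4%) were higher in KO and 528 (4.56%) lower. The median log2 difference of all tested genes was 0.15. Of the genes higher in KO, 75 had no read in the 19 WT cells, and 0 of 19 allows a share of up to 15.8%. Nothing is read from the 4 programme genes here, since they chose the cells.

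The 5 largest differences were those of Pigh, Pus3, Cpsf1, Pipox and Ccdc91. Pigh, an enzyme subunit of GPI anchor synthesis, was at 54.2, 59.9 and 27.3 CPM on KO plates 043, 467 and 471 and at 0 CPM on both WT plates, and it was read in 28.9% of KO cells. Cpsf1, a subunit of the mRNA cleavage complex, was at 54.9, 55.9 and 66.2 CPM against 1.04 and 0 CPM. Pus3, Pipox and Ccdc91 were read in 20.1%, 27.5% and 28.2% of KO cells and in 0%, 5.26% and 0% of WT cells. Exons of Pigh, Pus3, Cpsf1 and Ccdc91 overlap a gene on the opposite strand. In the other direction stood Cd36, Rspo2, Pdyn, Tdgf1 and Nhlrc3. Cd36, a fatty acid receptor, was at 0, 20.9 and 0 CPM in KO and 170 and 308 CPM in WT, from 21.1% of 19 WT cells. Rspo2, Pdyn and Tdgf1 were read in 10.5%, 15.8% and 10.5% of the 19 WT cells, which is at most 3 cells each.

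Of the immediate early genes, which are switched on within minutes of a stimulus, some were higher in KO programme-high cells. Of 20 tested, 10 were higher in KO (Fos, Fosb, Junb, Egr1, Nr4a1, Ier2, Btg2, Dusp1, Zfp36 and Gadd45g) and 0 lower, against 10.4% and 4.56% of all genes, with a median log2 difference of 2.01. The other 10 did not meet the size rule, among them Jun at 0.78, Klf6 at 0.53, Ier5 at -0.72, Myc at -1.46 and Gadd45b at -0.22 log2 units. Egr1, a zinc finger transcription factor, was at 390, 151 and 272 CPM on KO plates 043, 467 and 471 and at 4.14 and 15.8 CPM on WT plates 044 and 469. Fos was at 1408, 625 and 776 CPM against 140 and 215 CPM. For these 10 genes no KO plate overlapped a WT plate, which the size rule that picked them required. The sum over all 29 genes of the list was 4450, 1971 and 2788 CPM in programme-high cells of the KO plates and 876, 705 and 897 CPM in those of WT plates 044, 468 and 469. In the cells of the same plates that were not ependymal it was 10575, 11366 and 16487 CPM on KO plates 043, 467 and 471 and 12635, 4757 and 6655 CPM on WT plates 044, 468 and 469. Plate 044 was therefore within the KO range in its other cells and below it in its programme-high cells, and plates 468 and 469 were lower in both. Whether plate handling or genotype sets these levels cannot be told apart.

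**Figure D5:**
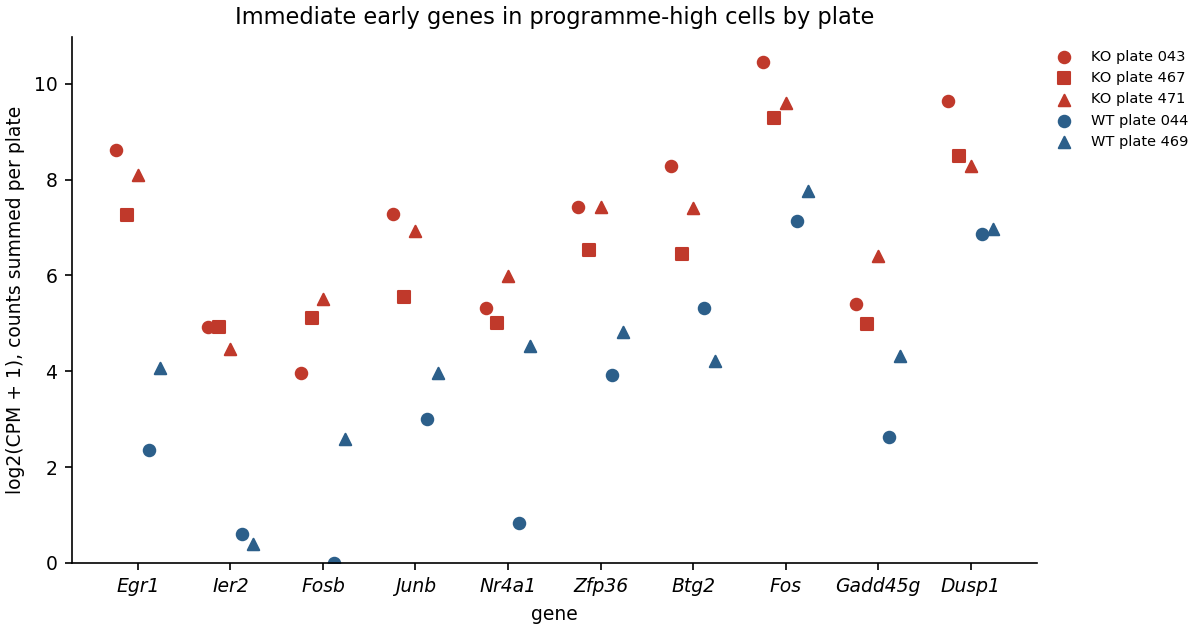
The 10 immediate early genes that were higher in KO, as log2(CPM + 1) from counts summed over programme-high cells of each plate. Red marks are KO plates and blue marks are WT plates. For each gene every red mark lies above both blue marks, as the rule that picked the genes required.

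Otx2, Msx1 and Cdh26 were lower in KO programme-high cells and were chosen after their values were seen. Otx2 was at 47.3, 24.8 and 25.7 CPM on KO plates 043, 467 and 471 and 114 and 103 CPM on WT plates 044 and 469. Msx1 was at 53.3, 71.4 and 16.4 CPM against 98.4 and 101 CPM, and Cdh26 at 91.6, 27.9 and 8.27 CPM against 125 and 201 CPM. All 3 met the size rule as lower in KO. Lhx2 overlapped between genotypes. When programme-high cells had to carry at least 2 of the 4 genes, which left WT plate 044 alone, Cdh26, Rspo2 and Pdyn were higher in KO, by 4.54, 0.10 and 1.84 log2 units. Acta2 and Myl9 overlapped between genotypes.

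Outside the ependymal set the summed level of the 4 genes rarely reached the threshold. The summed level reached 50 CPM in 15 of 2048 other cells (0.732%), of which 7 lay on WT plate 468. In these 15 cells a single gene passed the threshold in most: Ucma in 6, Col6a5 in 5 and Calb1 in 3. Htr5b reached at most 16.7 CPM outside the ependymal set. Calb1 was read in 11.6% of the other cells, Col6a5 in 1.51%, Htr5b in 1.61% and Ucma in 1.27%.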

How the data were processed

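Each sample was 1 cell. The deposited table holds whole-number read counts, not normalized, with genes by symbol and a column for each cell. The submitters' processing notes list TopHat2 2.1.1, SAMtools 0.1.18, featureCounts, Subread 1.4.6-p5 and the build GRCm38 (mm10), without saying what each did. The annotation release, strand setting and any cell filter are not given in the sources used here. Of 2254 cells, 2252 had at least 50000 counts. Counts were summed per plate and class and scaled to CPM, and differences are of log2(CPM + 1), which understates those of weakly read genes. No test was made, since genotype was 1 sample and the classes came from the same counts. Genes named were Notch3, the rule genes, genes among the 15 highest and 10 lowest differences that met the size rule, up to 3 genes per list by size of difference, the 5 highest and 5 lowest between genotypes, markers by summed level, and genes said to be chosen after their values were seen. The members and gene lists were chosen with earlier results of these data known. No doublet caller was run, as wells were sorted cells. Coordinates and overlaps came from GENCODE release M21, and overlaps are not named for every gene. Alternatives used TMM factors (edgeR 4.0.16) and DESeq2 1.42.0 size factors for scaling. The scripts were tested on simulated data and used Python 3.11.15 with numpy 2.4.6 and pandas 2.3.3. Results for some genes are not reported here.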

Additional observations from a re-analysis of the deposited data

Results flagged for a closer look

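For 2 genes the difference between programme-high and other ependymal cells ran one way on both KO plates and the other way on both WT plates that held at least 4 cells of each class. The difference between genotypes was not tested. Notch3 was higher in programme-high cells on KO plates 467 and 471, by 0.81 and 2.23 log2 units, and lower on WT plates 468 and 469, at -1.35 and -3.92. The KO mean minus the WT mean was 4.15 log2 units, with Notch3 read in 15.7% of programme-high and 21.9% of other ependymal cells. Notch3 was weakly read, with a median of 0 CPM in both classes. In cells with a read the medians were 14.9 CPM (programme-high) and 9.13 CPM (other), and the highest cells had 146 and 229 CPM. Its differences therefore rest on few reads in few cells and are not read as an effect of genotype. Otx2 was lower in programme-high cells on KO plates 467 and 471, at -3.14 and -0.83 log2 units, and higher on WT plates 468 and 469, at 0.37 and 1.42. The KO mean minus the WT mean was -2.88 log2 units.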

How the results depend on the processing

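No paired analysis was possible because the labels number no replicate that the genotypes share and name no animal. Counts of genes that met the size rule moved with some choices and little or not at all with others, and the cause was not tested. Leaving out each plate in turn gave 80 to 168 programme-high cells and a KO minus WT share of 17.7 to 52.3 percentage points. It gave 2175 to 3783 genes higher and 1172 to 3110 lower in programme-high cells, and 1202 to 2637 higher and 528 to 2218 lower in KO. Without WT plate 469 the counts were 3783 and 2029, without KO plate 467 they were 3092 and 3110, and fewer plates then had to share a direction. Between genotypes, 2637 and 2218 genes met the rule without plate 044, and 2439 and 1544 without plate 469. Plates 043 and 044 alone held 31 programme-high cells, with a share difference of -8.70 points, 2276 genes higher and 1906 lower in KO, and no plate with 5 cells of each class. The other 4 plates alone gave 2808 and 2050 between genotypes. Requiring reads of at least 2 of the 4 genes gave 1160 higher and 322 lower in programme-high cells, and 2633 and 1703 between genotypes. Against the others, that rule used KO plates 043, 467 and 471 in place of plates 467 and 469, with 38 other cells in place of 17. Under it Zfp939 was at 1.25, Emx1 at -0.14, Hey2 at 1.58 and Adrb1 at -0.080 log2 units, and between genotypes Cdh26 at 4.54, Rspo2 at 0.10 and Pdyn at 1.84. Requiring at least 3, chosen after seeing the data, left 107 cells, with 719 and 315 genes, and 2865 and 1845 between genotypes. Against the others, this rule used the same KO plates, with 62 other cells. Under it Tk2 was at -0.16, Zfp939 at 1.68, Emx1 at -0.44, Tshz1 at -0.77, Hey2 at 1.72, Psen2 at 0.30 and Cyr61 at -0.019, and between genotypes Cdh26 at 4.35, Rspo2 at 0.090 and Pdyn at 2.02. A sum without Col6a5 gave 481 lower genes, without Htr5b 486, and without Calb1 1081 higher and 323 lower. The plates used were 467, 469 and 471 without Col6a5 or Htr5b, and 043, 467 and 471 without Calb1. Without Calb1, Zfp939 was at 1.24, Emx1 at -0.19, Hey2 at 1.36 and Psen2 at 0.025. Without Ucma, Rfx4 was at -1.60 and Acta2 at -0.16. A pseudocount of 10 CPM gave 763 lower genes and 318 lower in KO. With no filter on low values 3467 were higher, and 2148 higher in KO. A minimum of 50 CPM gave 809 higher and 575 lower, and 288 and 283 between genotypes. Additions chosen after seeing the data gave 686 and 362 (plates with at least 4 cells of each class) and 1436 higher (all plates pooled). TMM factors gave 2304 and 1051 genes, and DESeq2 size factors 2096 and 1260. Of 1161 values of 43 named genes under the alternatives, 869 moved by less than the spread between plates, 275 moved further and 17 changed sign. Many of the 869 could not have moved further. Leaving out plate 043, 044, 468 or 471, or both 043 and 044, left the same plates 467 and 469. Leaving out plate 467 or 469 moves a 2-plate mean by less than the spread of those plates. Between genotypes the counts were 319, 49 and 6 of 374 values of 17 genes, where leaving out plate 468 could change none. These counts are therefore no measure of stability. The 17 other ependymal cells on plates 467 and 469 limit what could be seen of weakly read genes.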
